A study of Mus musculus with 2 samples.

Results

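The genes described here are Trp53, which encodes the transcription factor p53, the p53 targets Cdkn1a, Mdm2, Ccng1, Trp53inp1 and Sesn1, and the Gadd45 family, Gadd45a, Gadd45b and Gadd45g. They were taken by name and not by a rule on their values, but with earlier results of these data known. They make up 9 of the 32285 genes counted, of which 32235 were named from GENCODE vM21. Mouse retinae were dissociated, dead cells were removed and whole cells were captured with 10x Genomics 3' chemistry to ask how retinal cells differ early after a light exposure that damages photoreceptors. All mice carried floxed Tgfbr2 alleles and were functionally wildtype, on a Balb-C/CD1 background homozygous for the L450 variant of RPE65, and were 6 to 9 weeks old and, per the study's methods, of both sexes. Control mice were kept in darkness for 18 h. Light damage mice had the same 18 h of darkness, then 30 min of white light at 5000 lux and 6 h of recovery in dim light. Retinae of 3 to 5 mice were pooled into 1 library per condition, so the design has no replicates and allows no p-value. The 95% intervals printed here reflect counting error alone and say nothing of how mice or libraries vary.

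In resting cells p53 is kept low because the ubiquitin ligase MDM2 marks it for degradation. Damage or stress stabilises p53, which then activates genes that halt the cell cycle, repair DNA or limit oxidative stress, together with Mdm2 itself, so that the response is held in check by its own product. The Gadd45 genes encode small acidic proteins that bind the kinase MAP3K4, PCNA and CDK1. Gadd45a is a direct p53 target, whereas Gadd45b and Gadd45g are known mainly as early response genes to cytokines and stress. In the retina the pathway has been studied above all for its part in the death or survival of photoreceptors and in the response of glia to injury.

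The control library held 30605284 unique molecular identifiers (UMIs, each counting 1 captured RNA molecule) and the light damage library 54413601, of which 18.7% and 32.7% were unspliced, that is, from introns. After filters 3669 and 5593 droplets were kept, and 7 kept barcodes occurred in both libraries. Droplets were classed by the UMIs of marker genes. Rods were split into low-unspliced rods (under 20% unspliced UMIs, 2387 control and 1893 light damage droplets) and high-unspliced rods (at least 30%, 716 and 3141 droplets), and cone-like (158 and 90), RPE-like (retinal pigment epithelium, 155 and 297) and Müller-like droplets (46 and 38) were set beside them. The light damage droplets were deeper, with a median of 14481.5 UMIs against 2732 in cone-like and 18060 against 2407.5 in Müller-like droplets, and they held less free RNA, 1.3% against 9.03% of UMIs in Müller-like and 5.81% against 8.57% in RPE-like droplets by estimate. The pools also differed in sex: Xist was at 322 UMIs per 1000000 in control and 0.0809 in light damage droplets, although both sexes were stated. The part of depth, free RNA and sex in the results below was not tested beyond the alternatives that are given, and they cannot be told apart from light damage by design.

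The class names were checked against their markers. Control cone-like droplets held rod markers at a median of 12.1% of their UMIs, near the 13.7% of low-unspliced rods, and cone markers at 0.737%, so the control data go in part against the label. Light damage cone-like droplets held rod markers at 3.88% and cone markers at 1.68%. Müller markers were at a median of 1.86% of UMIs in control and 0.732% in light damage Müller-like droplets. Rod markers stood at 2.73% and 0.588% in the same droplets, so in control they exceeded the Müller markers. No listed marker stood among the 10 leading genes of the light damage Müller-like or RPE-like droplets, which included Cp and Tnfaip6 in the former and Cldn2 and Slc45a2 in the latter. All 84 Müller-like droplets fell in Leiden clusters that their markers also named Müller-like, which held 48 high-unspliced and 14 low-unspliced rods besides. Of the 38 light damage Müller-like droplets, 15 had less than 2 times the marker share required, as had 55 of 158 control and 17 of 90 light damage cone-like droplets.

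To show the promoters of the genes that the results turn on, the 250 bases before the annotated start were read for 8 of the 9 genes from RefSeq on GRCm38.p6; Trp53inp1 had no entry. The sequences of Cdkn1a (its first start) and Mdm2 are shown as classical p53 targets, those of Gadd45b and Gadd45g as the Gadd45 genes that differed in rods. Capitals mark every match, on either strand, to the consensus half-site of p53, the AP-1 site TGANTCA, the kB site, the cAMP response element TGACGTCA, the GAS site TTCNNNGAA or the E-box CACGTG. Each sequence is written 5' to 3' on the gene's own strand.
Cdkn1a, chr17:29090729-29090978, plus strand: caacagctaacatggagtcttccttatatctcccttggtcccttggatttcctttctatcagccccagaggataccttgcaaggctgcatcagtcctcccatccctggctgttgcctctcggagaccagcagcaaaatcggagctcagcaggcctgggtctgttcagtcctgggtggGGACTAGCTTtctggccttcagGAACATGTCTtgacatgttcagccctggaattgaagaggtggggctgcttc
Mdm2, chr10:117710759-117711008, minus strand: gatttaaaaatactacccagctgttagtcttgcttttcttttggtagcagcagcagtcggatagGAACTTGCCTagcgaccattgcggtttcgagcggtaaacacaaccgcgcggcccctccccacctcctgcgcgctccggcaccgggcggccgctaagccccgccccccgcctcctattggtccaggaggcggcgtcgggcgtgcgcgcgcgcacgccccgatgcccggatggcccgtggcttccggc
Gadd45b, chr10:80929841-80930090, plus strand: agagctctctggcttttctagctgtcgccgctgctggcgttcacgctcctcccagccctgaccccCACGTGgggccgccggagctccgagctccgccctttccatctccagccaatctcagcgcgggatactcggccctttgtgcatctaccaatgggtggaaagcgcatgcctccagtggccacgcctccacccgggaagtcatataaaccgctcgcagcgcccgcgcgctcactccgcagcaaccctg
Gadd45g, chr13:51846425-51846674, plus strand: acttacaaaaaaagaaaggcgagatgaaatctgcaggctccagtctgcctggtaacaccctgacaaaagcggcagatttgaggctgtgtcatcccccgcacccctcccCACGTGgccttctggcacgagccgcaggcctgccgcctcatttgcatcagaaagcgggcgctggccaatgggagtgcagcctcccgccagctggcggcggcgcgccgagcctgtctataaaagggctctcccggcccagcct

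The 2 matches in Cdkn1a were p53 half-sites that began 73 and 51 bases before the start. The 10 bases after them differed from a further half-site by 7 and 1 bases. Mdm2 held 1 p53 half-site at 186 bases before the start, and its next 10 bases differed by 5. Windows of 6 of the 8 genes (Trp53, Cdkn1a, Mdm2, Ccng1, Sesn1 and Gadd45a) held at least 1 p53 half-site. After the matches of Trp53, Ccng1, Sesn1 and Gadd45a the next 10 bases differed by 3, 6, 3 and 6. Only the bases directly after each match were compared. The 8 genes had 10 windows, as Cdkn1a and Sesn1 had 2 starts each, and the second start of Cdkn1a and the first of Sesn1 held none. Over single windows, 7.13% of the 32851 mouse promoter windows of that length held at least 1, so the count of genes and this share are not in the same unit. Gadd45b and Gadd45g held none, and each had 1 E-box, at 185 and 142 bases before the start, a motif found in 6.02% of windows. None of the other motifs (found in 6.75% of windows for the AP-1 site, 7.25% for kB, 1.55% for the cAMP response element and 7.02% for the GAS site) was in any window of the 8 genes. A match describes these letters and not a bound site.

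Levels are given in CPM, spliced and ambiguous UMIs of a gene per 1000000 such UMIs, added up within each class, and a gene was called higher or lower where light damage differed from control at least 2-fold with an interval that left out no change, among genes with at least 20 UMIs over both libraries. A gene at 0 in control with an interval above no change was called as well, and its fold is given as a bound. In low-unspliced rods 1 of the 7 genes with enough UMIs was called higher (Gadd45b), where 4.67% of all genes tested were called higher and 1.32% lower. In high-unspliced rods 3 of 9 were called higher (Cdkn1a, Gadd45b and Gadd45g), against 6.24% of all genes higher and 4.17% lower. In cone-like droplets 3 of 8 were called higher (Cdkn1a, Trp53inp1 and Gadd45b), against 13.7% higher and 3.08% lower, but none of these 3 held under every alternative. RPE-like droplets had 5 of 8 called higher (Trp53, Cdkn1a and all Gadd45 genes), against 9.78% higher and 5.2% lower. Müller-like droplets had 4 of 6 called higher (Trp53, Cdkn1a, Gadd45a and Gadd45b), against 17.7% higher and 13.9% lower. No gene of the 9 was called lower in any of the 5 classes. Outside low-unspliced rods every call was of a gene with under 20 control UMIs, which passed the minimum through its light damage UMIs, so the counts leave out members that were low in both libraries and do not describe all 9. Over all 9 genes, with no minimum and with genes at 0 in control set at their bound, the median log2 ratio was 0.16 in low-unspliced rods, 0.82 in high-unspliced rods, 0.93 in cone-like, 1.88 in RPE-like and 1.11 in Müller-like droplets. Over all genes with at least 20 UMIs it was 0.17, 0.03, 0.24, 0.05 and 0.04 in the same classes. The median gene with at least 50 UMIs in both libraries stood at -0.56 in Müller-like droplets and within 0.16 of 0 in the other classes, and relative to it every call above was kept, with Mdm2 added in RPE-like and Müller-like droplets.

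**Figure D1:**
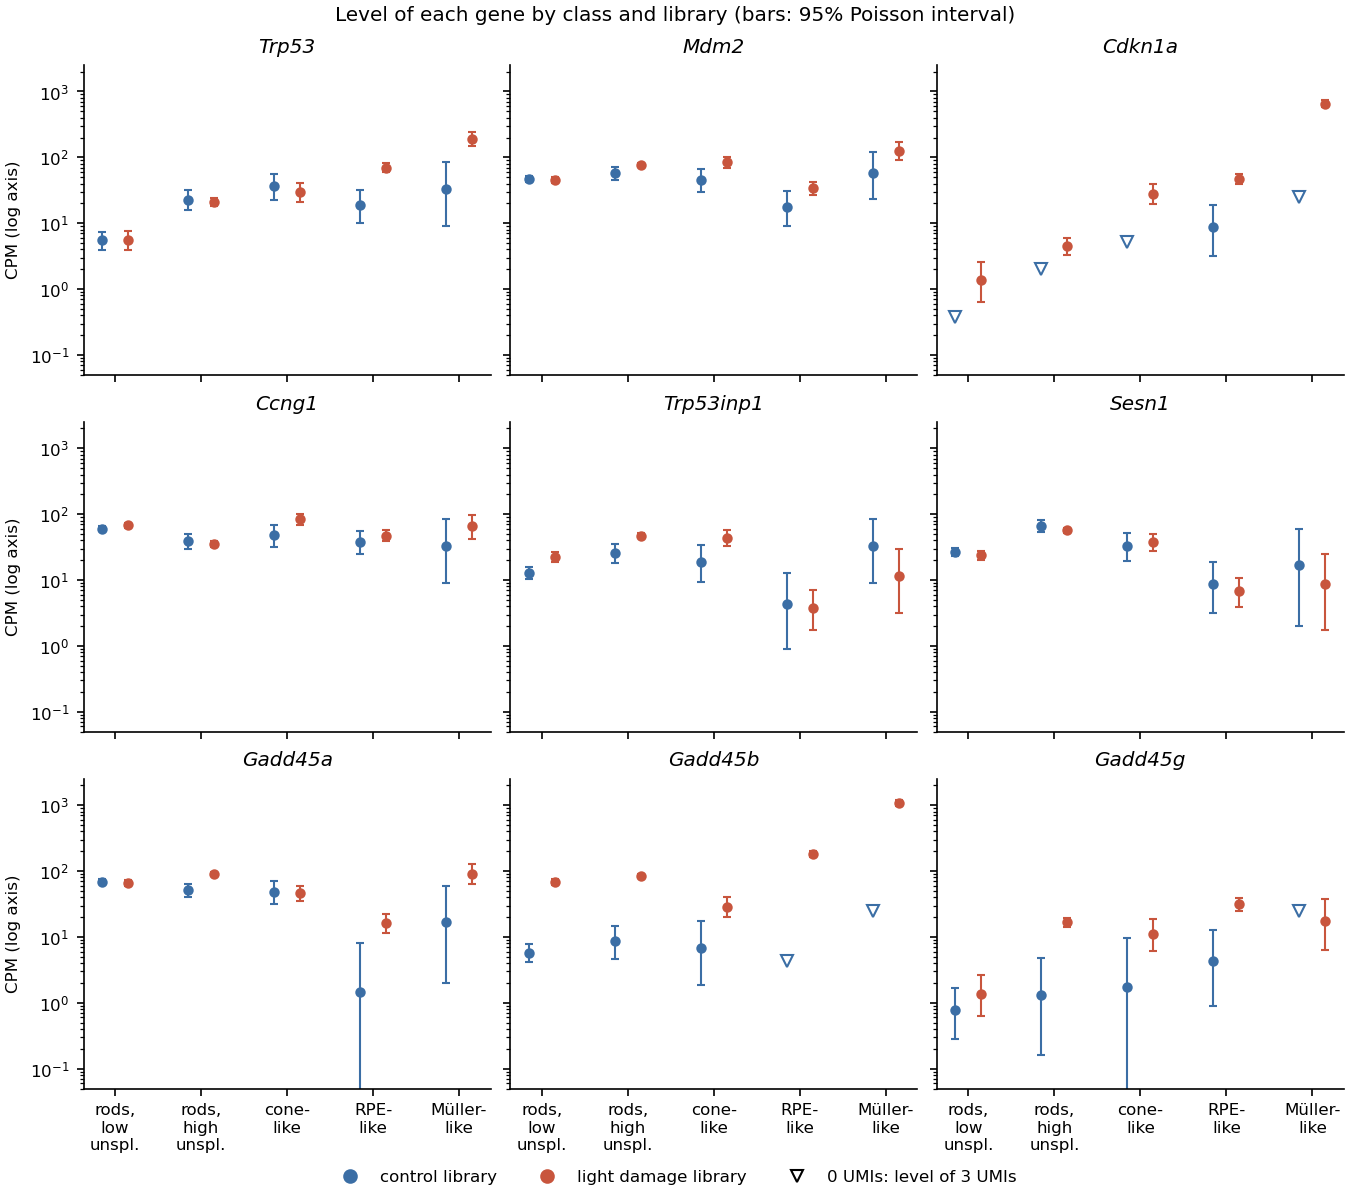
Level of each of the 9 genes in CPM (log axis) in the 5 classes of droplets, for the control library (blue) and the light damage library (red), with 95% Poisson intervals; open triangles mark the level of 3 UMIs where a gene had 0 UMIs. Gadd45b in the light damage library lies above the control in every class and highest in Müller-like droplets (1071), whereas Mdm2, Ccng1 and Sesn1 lie close together in both libraries of the rods.

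Trp53 (ENSMUSG00000059552, chr11:69580359-69591873 on GRCm38) encodes p53 itself, whose activity is set mostly by protein stability rather than by its RNA. In rods its level was the same within counting error, at 5.50 CPM (43 UMIs) in control and 5.53 CPM (36 UMIs) in light damage low-unspliced rods and at 22.7 and 21.0 CPM (34 and 229 UMIs) in high-unspliced rods. Cone-like droplets had 36.2 and 29.5 CPM from 21 and 37 UMIs. RPE-like droplets, in contrast, went from 19.0 CPM (13 UMIs) to 69.8 CPM (166 UMIs), a log2 ratio of 1.88 with an interval of 1.07 to 2.82. Müller-like droplets went from 33.3 CPM (4 UMIs) to 189 CPM (66 UMIs), a log2 ratio of 2.50 (1.08 to 4.42). That value rests on 4 control UMIs, of which 2 lay in 1 droplet. It ran from 1.73 with Leiden clusters to 3.29 without droplets over 50000 UMIs and 3.37 without the droplet richest in Trp53, with each interval above 0. Trp53 was thus called higher in the RPE-like and Müller-like droplets and in no photoreceptor class. In the light damage library its order from Müller-like over RPE-like to cone-like droplets had intervals above 0 at each step, cone-like droplets and high-unspliced rods were not told apart, and low-unspliced rods were lowest. In the control library the upper 4 classes were not told apart from their neighbours, and low-unspliced rods were again lowest.

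Mdm2 (ENSMUSG00000020184, chr10:117688875-117710758), the ligase that limits p53 and is also its target, was called in no class. It stood at 47.2 CPM (369 UMIs) in control and 45.2 CPM (294 UMIs) in light damage low-unspliced rods, a log2 ratio of -0.06 (-0.29 to 0.16). High-unspliced rods had 57.4 and 75.4 CPM (86 and 821 UMIs), a log2 ratio of 0.39 (0.07 to 0.73), so the interval excluded no change but the difference was under 2-fold. The other classes had larger ratios on fewer UMIs. Cone-like droplets had 44.8 and 85.3 CPM (26 and 107 UMIs, log2 ratio 0.93, 0.30 to 1.61), and RPE-like droplets 17.5 and 34.1 CPM (12 and 81 UMIs, 0.96, 0.08 to 1.97). In Müller-like droplets 58.3 and 126 CPM (7 and 44 UMIs) gave 1.11 (-0.05 to 2.51). The RPE-like ratio lies just under the limit of a call and passed it under 5 of the alternatives, with log2 ratios of 1.04 to 1.32, but was 0.50 (-0.23 to 1.30) with doublets kept. Intronic UMIs of Mdm2 in Müller-like droplets were called higher, with 1 control and 31 light damage UMIs, or 7.50 and 87.6 per 1000000 unspliced UMIs, a log2 ratio of 3.55 (0.96 to 8.90).

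Cdkn1a (ENSMUSG00000023067, chr17:29090976-29100727) encodes p21, the inhibitor of cyclin-dependent kinases and the best known p53 target. In the control library it had 6 UMIs in RPE-like droplets and 0 in each of the other 4 classes. The light damage library had 9 UMIs in low-unspliced rods (1.38 CPM), too few for a call, and 49 in high-unspliced rods (4.50 CPM), at least 2.25-fold above the level that 3 control UMIs would give. This bound was 1.35-fold with Leiden clusters and 1.84-fold without the droplet richest in Cdkn1a, and with a minimum of 50 UMIs the gene was not tested there. The remaining classes stood higher. RPE-like droplets went from 8.75 to 47.1 CPM (6 and 112 UMIs), a log2 ratio of 2.43 (1.26 to 3.91), which was 3.27 (1.68 to 5.57) without the richest droplet of each library, since 1 control droplet held 3 of the 6 UMIs. Müller-like droplets reached 656 CPM (229 UMIs), at least 26.2-fold above the same bound. In cone-like droplets 35 light damage UMIs gave 27.9 CPM, at least 5.39-fold, but 24 of the 35 came from 1 droplet of 202050 UMIs, and without it the call was lost. In the light damage library Cdkn1a was highest in Müller-like droplets, then in RPE-like droplets, and higher in high-unspliced than in low-unspliced rods (log2 ratio 1.70, 0.66 to 2.92). The place of cone-like droplets in that order rests on the 1 droplet.

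Ccng1 (ENSMUSG00000020326, chr11:40748552-40755311) encodes cyclin G1, which recruits a phosphatase to MDM2. It was called in no class. Its levels were 60.6 and 67.6 CPM in low-unspliced rods (474 and 440 UMIs, log2 ratio 0.16, -0.03 to 0.35), and 39.4 and 35.2 CPM in high-unspliced rods (59 and 383 UMIs, -0.16, -0.56 to 0.26). In rods these intervals leave out a 2-fold change in either direction. RPE-like droplets had 37.9 and 47.1 CPM (26 and 112 UMIs) and Müller-like droplets 33.3 and 65.9 CPM (4 and 23 UMIs), both with intervals that held 0. Cone-like droplets had 48.3 and 84.5 CPM (28 and 106 UMIs, log2 ratio 0.81, 0.20 to 1.46). In the control library no 2 neighbouring classes were told apart for this gene.

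Trp53inp1 (ENSMUSG00000028211, chr4:11156431-11174379) encodes a stress-induced protein that promotes p53-dependent arrest and autophagy. It stood at 12.9 CPM (101 UMIs) in control and 22.6 CPM (147 UMIs) in light damage low-unspliced rods, a log2 ratio of 0.81 (0.43 to 1.19), and at 25.4 and 47.2 CPM (38 and 514 UMIs) in high-unspliced rods, a ratio of 0.90 (0.42 to 1.41). Both rod intervals lay above 0 and both ratios under 2-fold. Cone-like droplets went from 19.0 to 43.8 CPM (11 and 55 UMIs), a log2 ratio of 1.21 (0.26 to 2.29), which was called but fell to 0.63 (-0.15 to 1.47) with clusters in place of single droplets. RPE-like droplets held 3 and 9 UMIs and Müller-like droplets 4 and 4, too few for a call.

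Sesn1 (ENSMUSG00000038332, chr10:41809935-41908424) encodes sestrin 1, which dampens mTORC1 signalling under oxidative and genotoxic stress. It was called in no class. Low-unspliced rods had 26.3 and 23.7 CPM (206 and 154 UMIs, log2 ratio -0.16, -0.47 to 0.15) and high-unspliced rods 66.1 and 56.7 CPM (99 and 617 UMIs, -0.22, -0.53 to 0.10). Those intervals leave out a 2-fold change as well. Cone-like droplets had 32.8 and 37.5 CPM, RPE-like droplets 8.75 and 6.73 CPM (6 and 16 UMIs), and Müller-like droplets 2 and 3 UMIs. Its level was highest in high-unspliced rods in both libraries, above cone-like droplets by a log2 ratio of 1.01 (0.29 to 1.80) in control and 0.60 (0.17 to 1.06) after light damage.

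Gadd45b (ENSMUSG00000015312, chr10:80930073-80932204) was the one member called higher in all 5 classes. Low-unspliced rods went from 5.75 CPM (45 UMIs) to 67.9 CPM (442 UMIs), 11.8-fold (8.67 to 16.4). High-unspliced rods went from 8.68 CPM (13 UMIs) to 84.6 CPM (921 UMIs), 9.75-fold (5.68 to 18.4). Of the 13 control UMIs 6 lay in 1 droplet, and without the richest droplet of each library the log2 ratio went from 3.29 to 4.16 (3.11 to 5.48). The intervals of both groups of rods overlap, and their difference was not tested. RPE-like droplets had 0 control UMIs and 431 light damage UMIs (181 CPM), at least 41.4-fold. Müller-like droplets had 0 and 374 UMIs (1071 CPM), at least 42.8-fold. In both of these classes the gene was thus undetected in control and well detected after light damage. Cone-like droplets held 4 and 36 UMIs, 6.89 and 28.7 CPM, with a log2 ratio of 2.06 (0.58 to 4.01) that changed sign with the definition of the class, to -1.01 (-1.78 to -0.25) with clusters and -0.91 (-3.04 to 1.67) with at least 1% of cone markers required. Of the 36 light damage UMIs there, 16 lay in 1 droplet, and with droplets over 50000 UMIs left out the ratio was 0.34 (-1.51 to 2.49). In the light damage library the order was Müller-like, RPE-like, high-unspliced rods, low-unspliced rods and cone-like droplets, with an interval above 0 at every step. The step between the rods was a log2 ratio of 0.32 (0.15 to 0.49), less than the 0.493 by which the median gene differed. The place of cone-like droplets was not compared under the other definitions of that class.

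Gadd45g (ENSMUSG00000021453, chr13:51846678-51848468), the third member of the family, which like the others can slow cell division, was called higher in 2 classes. High-unspliced rods went from 1.34 CPM (2 UMIs) to 16.6 CPM (181 UMIs), a ratio of 12.5 (3.40 to 104), and RPE-like droplets from 4.38 CPM (3 UMIs) to 31.6 CPM (75 UMIs), a ratio of 7.21 (2.37 to 35.8). With the richest droplet of each library left out, 1 of the 2 control UMIs in high-unspliced rods was lost. The log2 ratio there then went from 3.64 to 4.54 (2.04 to 9.85), a rise that this loss sets. Low-unspliced rods held 6 and 9 UMIs. In the light damage library high-unspliced rods exceeded low-unspliced rods by a log2 ratio of 3.59 (2.63 to 4.74), where the median gene differed by 0.49, while Gadd45b differed between the same rods by 0.32 (0.15 to 0.49). Cone-like droplets held 1 and 14 UMIs and Müller-like droplets 0 and 6, too few for a call.

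Gadd45a (ENSMUSG00000036390, chr6:67035096-67037457), the p53-regulated member, overlaps E230016M11Rik on the other strand, from which the stranded counting separates it. It was well detected in control rods, at 68.5 CPM (536 UMIs) in low-unspliced and 51.4 CPM (77 UMIs) in high-unspliced rods. Light damage rods had 66.2 CPM (431 UMIs; log2 ratio -0.05, -0.24 to 0.14) and 90.4 CPM (984 UMIs; 0.82, 0.48 to 1.17). RPE-like droplets went from 1.46 CPM (1 UMI) to 16.4 CPM (39 UMIs), a ratio of 11.2 (1.90 to 456), and Müller-like droplets from 16.7 CPM (2 UMIs) to 91.7 CPM (32 UMIs), a ratio of 5.50 (1.40 to 47.4). Both calls rest on very few control UMIs: with no doublets removed RPE-like droplets held 7 and 43 UMIs and the log2 ratio was 0.92 (-0.25 to 2.32), no longer called, and with at least 1000 UMIs per droplet it was 2.69 (0.74 to 5.79). At a minimum of 50 UMIs Gadd45a was tested in neither class. Cone-like droplets had 48.3 and 46.2 CPM (28 and 58 UMIs, log2 ratio -0.06, -0.74 to 0.64).

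**Figure D2:**
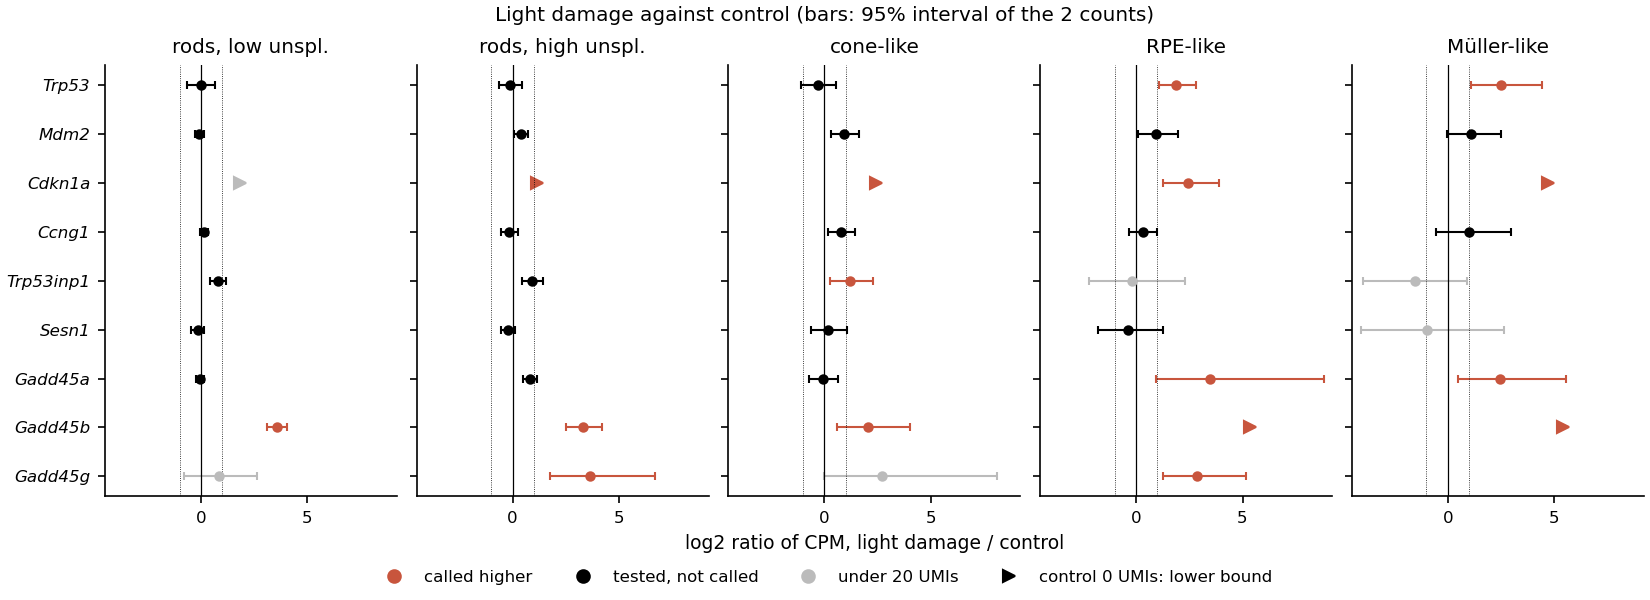
Log2 ratio of CPM, light damage over control, for each gene in the 5 classes, with the 95% interval of the 2 counts; arrowheads are lower bounds where the control had 0 UMIs, red marks a call and grey marks fewer than 20 UMIs. Gadd45b is red in all 5 classes and Mdm2, Ccng1 and Sesn1 in none.

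Whether the higher sums came from many droplets or few was examined with each droplet thinned to 1000 UMIs, which evens out depth and leaves out shallower droplets (189 control and 403 light damage high-unspliced rods, 16 control Müller-like droplets and 1 light damage RPE-like droplet). All kept droplets had at least 1464 UMIs in total. Those left out thus fell short once unspliced UMIs were set aside, and most were high-unspliced rods. Gadd45b was then found in 0.461% of control (0.230 to 0.823) and 5.55% of light damage low-unspliced rods (4.56 to 6.68), and in 0.380% (0.0460 to 1.36) and 6.87% (5.95 to 7.88) of high-unspliced rods. In RPE-like droplets it was found in 0 of 155 control droplets (upper limit 2.35%) and in 12.2% (8.67 to 16.4) after light damage. In Müller-like droplets the shares were 0 of 30 (upper limit 11.6%) and 52.6% (35.8 to 69.0). Cone-like droplets had 0.633% and 1.11%, 1 droplet in each library. Unthinned, Gadd45b was found in 1.17% and 13.6% of low-unspliced rods, 0.698% and 14.9% of high-unspliced rods, 36.0% of light damage RPE-like and 81.6% of light damage Müller-like droplets. The light damage UMIs of Gadd45b thus came from 257 low-unspliced and 468 high-unspliced rods, with at most 12 and 14 UMIs in any 1 droplet. Within each group of rods they were uneven, as given below.

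Cdkn1a too was found in a larger share of Müller-like droplets than of rods after light damage. Thinned, it was found in 36.8% (21.8 to 54.0) of light damage and 0 of 30 control Müller-like droplets (upper limit 11.6%). RPE-like droplets had 1.29% (0.157 to 4.58) in control and 3.38% (1.63 to 6.13) after light damage, with intervals that overlap. High-unspliced rods had 0 of 527 (upper limit 0.698%) and 0.365% (0.175 to 0.671), which overlap too, and cone-like droplets had 0 in either library. Unthinned, 32 of 38 light damage Müller-like droplets held Cdkn1a, 31 held Gadd45b and 29 held both, whereas 30 of 297 RPE-like droplets and 8 of 3141 high-unspliced rods held both. Light damage Müller-like droplets, also unthinned, had a median of 4 of the 9 genes detected, against 0 in control. These classes differ in depth, with a median of 18060 UMIs in light damage and 2407.5 in control Müller-like droplets. Light damage RPE-like droplets had 6417 and high-unspliced rods 6118. The unthinned counts were not evened for depth, and its part in them was not tested. Trp53 was found in 10.5% (2.94 to 24.8) of thinned light damage and 0 of 30 control Müller-like droplets (upper limit 11.6%). In RPE-like droplets the shares were 5.07% (2.86 to 8.22) after light damage and 2.58% (0.708 to 6.48) in control. The intervals overlap in both classes, so at even depth the shares alone do not clearly tell the libraries apart for Trp53. Red blood cells, which should lack these genes, had 9 droplets in each library (median 2603 and 9222 UMIs), of which none held Cdkn1a, Gadd45b or Trp53 (upper limit 33.6%) and 1 light damage droplet each held Mdm2 and Ccng1, so they are too few to set a background for the rods. In light damage rods, 65 of 1893 low-unspliced and 108 of 3141 high-unspliced droplets held at least 50% of the class's Gadd45b UMIs. Within RPE-like droplets the UMIs were uneven too: 12 of 297 droplets held at least 50% of the 431 Gadd45b UMIs. These had a median of 21237 UMIs against 5924 in the others, with RPE markers at 8.46% and 5.72% and Müller markers at 0.286% and 0.211%. For Cdkn1a, 10 droplets held at least 50% of the 112 UMIs, with a median of 11867 UMIs against 5933 in the others. Their RPE markers stood lower, at 2.5% against 6.04%, and their Müller markers at 0.296% against 0.21%. By RPE markers these 10 droplets thus fit the label less well than the others. In light damage Müller-like droplets, 6 of 38 held at least 50% of the 374 Gadd45b UMIs, with 58 in 1 droplet. For Cdkn1a 7 of 38 held at least 50% of the 229 UMIs. The medians of these 6 and 7 droplets were 28261.5 and 22324 UMIs, against 14414 and 14591 in the others.

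**Figure D3:**
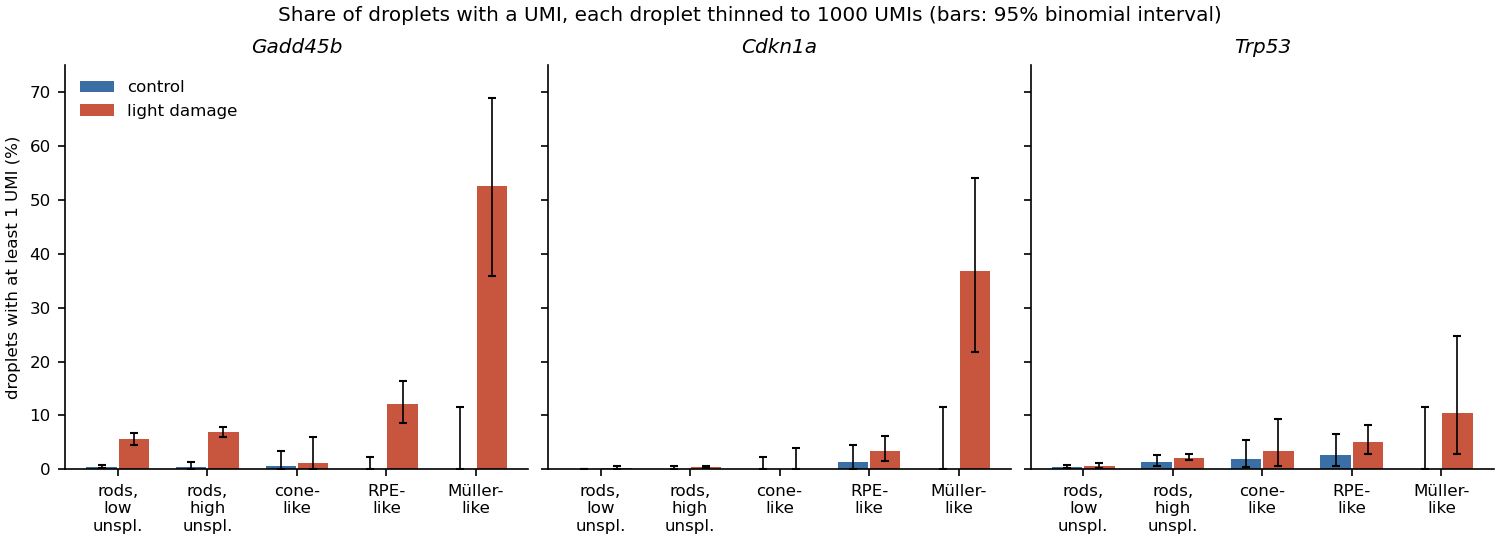
Share of droplets (percent) with at least 1 UMI of Gadd45b, Cdkn1a or Trp53 after thinning each droplet to 1000 UMIs, by class, in control (blue) and light damage (red), with 95% binomial intervals. The light damage Müller-like bars stand highest, at 52.6% for Gadd45b, 36.8% for Cdkn1a and 10.5% for Trp53, with control Müller-like droplets at 0.

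Unspliced UMIs come from introns and so mostly from RNA not yet processed. Sesn1, whose gene spans 98490 bases, was largely unspliced wherever intronic RNA was abundant, at 81.8% (78.3 to 84.9) in control and 80.3% (78.9 to 81.7) in light damage high-unspliced rods and at 94.9% and 93.6% in Müller-like droplets. Trp53, Mdm2 and Trp53inp1 were between 36.2% and 54.8% unspliced in high-unspliced rods of both libraries, beside 58.7% and 52.8% of all UMIs there. Gadd45a, Gadd45b and Gadd45g, whose genes span 1791 to 2362 bases, and Cdkn1a were at 7.14% or less in every class and library. For Gadd45b in high-unspliced rods the intronic UMIs numbered 1 in control and 65 after light damage, 0.469 and 5.35 per 1000000 unspliced UMIs, a log2 ratio of 3.51 (0.98 to 8.84), close to the 3.29 of its spliced and ambiguous UMIs. Sesn1 intronic UMIs differed by a log2 ratio of -0.01 (-0.16 to 0.14) in high-unspliced rods, but were called lower in low-unspliced rods (28 and 11 UMIs, -1.16, -2.31 to -0.11) and in Müller-like droplets (37 and 44 UMIs, 277.5 and 124 per 1000000 unspliced UMIs, -1.16, -1.82 to -0.49). The median gene of the unspliced UMIs stood at -0.17 and -0.43 in these classes. Relative to it Sesn1 was at -0.99 and -0.73, both under 2-fold. The share of all genes called on unspliced UMIs was not computed, neither for these calls nor for that of Mdm2.

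**Figure D4:**
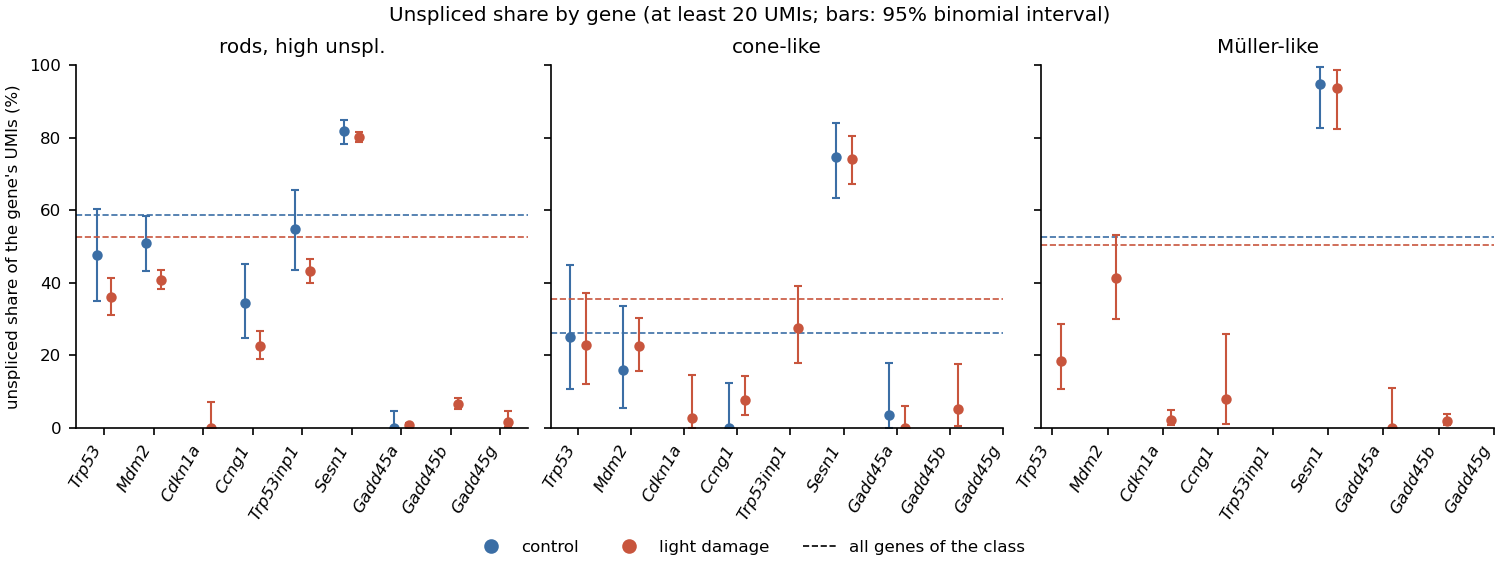
Unspliced share of each gene's UMIs (percent) in high-unspliced rods, cone-like and Müller-like droplets of the control (blue) and light damage (red) library, for genes with at least 20 UMIs, with 95% binomial intervals; dashed lines give the share over all genes of the class. Sesn1 lies above the dashed lines in all 3 panels and the Gadd45 genes lie near 0.

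Beyond the 9 genes, 50 others of the pathway were examined in 3 lists: 25 further direct p53 targets, 14 regulators of p53, and 11 Gadd45 partners and kinases downstream of them. Like the members, most genes called higher were under 20 UMIs in control and passed the minimum through the light damage library. In low-unspliced rods 3 of 34 tested were called higher (8.82%, against 4.67% of all genes) and 0 lower, and in high-unspliced rods 4 of 38 (10.5%, against 6.24%) and 0 lower. Plk2, a stress-responsive polo-like kinase and p53 target, was among them in both, with 1 control and 57 light damage UMIs (0.128 and 8.75 CPM, log2 ratio 6.10, 3.56 to 11.4) in low-unspliced and 0 and 132 UMIs (12.1 CPM, at least 6.06-fold) in high-unspliced rods. Apaf1, which builds the apoptosome, had 3.96 and 10.1 CPM in low-unspliced rods, a log2 ratio of 1.36 (0.72 to 2.02), and was called in high-unspliced rods too. Map2k3, a kinase that activates p38, went from 2.05 to 5.99 CPM (log2 ratio 1.55, 0.68 to 2.49) in low-unspliced and from 6.67 to 22.0 CPM (1.72, 0.81 to 2.80) in high-unspliced rods. Bbc3, which encodes the death-promoting BH3 protein PUMA, was called in high-unspliced rods with 1 and 80 UMIs, 0.667 and 7.35 CPM (log2 ratio 3.46, 0.94 to 8.78). Among the 14 regulators of p53 none was called in either group of rods.

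In cone-like droplets 5 of 31 were called higher (16.1%, near the 13.7% of all genes) and 0 lower. Besides Ddb2 and Kat5 they were Zmat3, an RNA-binding p53 target (8.62 and 28.7 CPM, log2 ratio 1.74, 0.38 to 3.44), the damage-sensing kinase Atm (13.8 and 31.1 CPM, 1.17, 0.05 to 2.48) and Trp53bp1, which binds chromatin at DNA breaks (22.4 and 50.2 CPM, 1.16, 0.29 to 2.15). That count was 1 to 8 under the alternatives.

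RPE-like droplets had 7 of 37 called higher (18.9%, against 9.78% of all genes) and 3 lower (8.11%, against 5.2%). Those higher were Btg2, Fas, Map2k3, Aen, Plk3, Kat5 and Gadd45gip1. Btg2, an antiproliferative p53 target, went from 5.83 CPM (4 UMIs) to 93.4 CPM (222 UMIs), a log2 ratio of 4.00 (2.62 to 5.89), and the death receptor gene Fas from 0 to 76 UMIs (32.0 CPM), at least 7.31-fold. Map2k3 was called here too, from 5.83 to 26.1 CPM (2.16, 0.73 to 4.08). The 3 called lower were all in the list of Gadd45 partners and kinases: Cdk1 (35.0 and 10.9 CPM, log2 ratio -1.68, -2.54 to -0.81), Mapk8, which encodes JNK1 (20.4 and 5.05 CPM, -2.02, -3.26 to -0.80), and Mapk14, which encodes p38 alpha (32.1 and 13.0 CPM, -1.30, -2.13 to -0.44).

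Müller-like droplets had 6 of 18 called higher (33.3%, against 17.7% of all genes) and 1 lower (5.56%, against 13.9%). Those higher were the p53 targets Bax, Fas, Aen, Phlda3 and Btg2 and the kinase gene Map2k4. Each had under 20 control UMIs, and most of the 25 further p53 targets had too few UMIs to be tested, among them Rrm2b with 9 control and 7 light damage UMIs (log2 ratio -1.90, -3.56 to -0.31), named after its values were seen. Btg2 went from 50.0 to 344 CPM (6 and 120 UMIs, log2 ratio 2.78, 1.62 to 4.26), Fas from 16.7 to 166 CPM (2 and 58 UMIs, 3.32, 1.40 to 6.40), and Phlda3, an inhibitor of AKT, from 0 to 40 UMIs (115 CPM), at least 4.58-fold. Mdm4, the partner of MDM2 in restraining p53, was lower, at 142 and 68.7 CPM (17 and 24 UMIs, -1.04, interval from -2.0 to -0.06). Relative to the median gene of the class, which stood at -0.56, Mdm4 was not called.

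**Figure D5:**
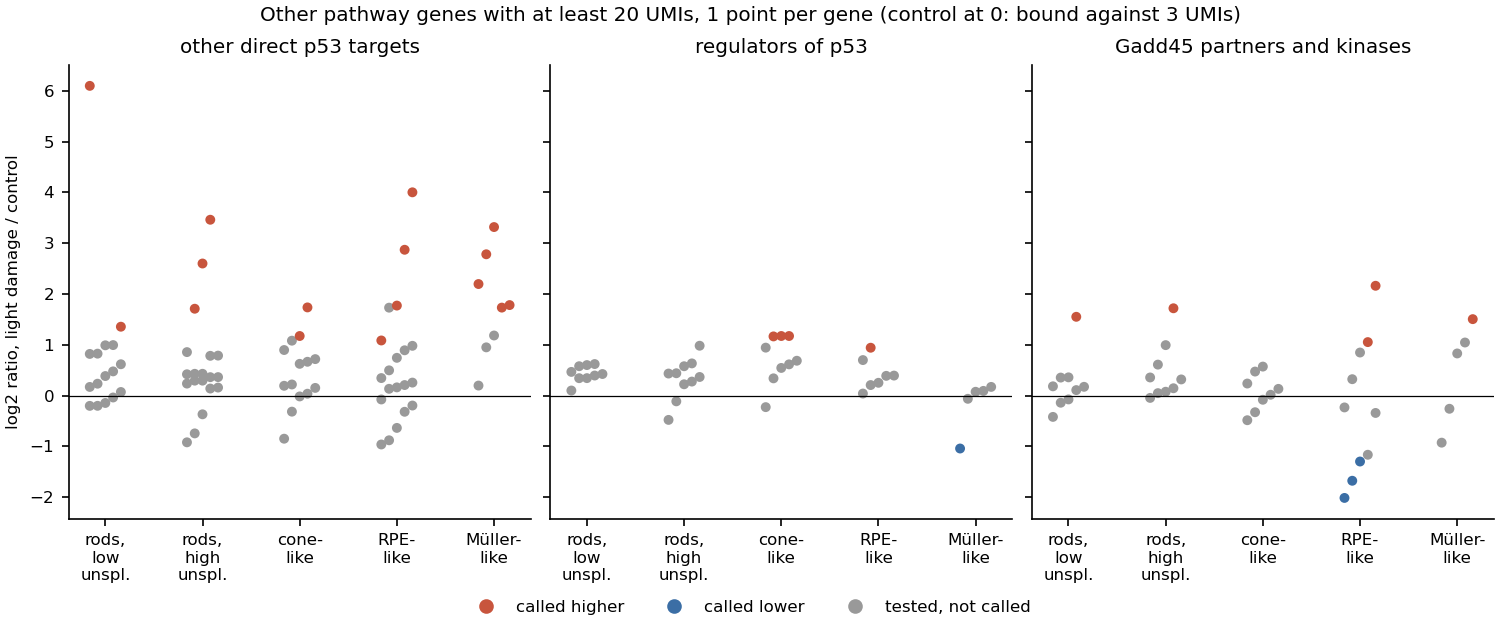
Log2 ratio of light damage over control for the other pathway genes with at least 20 UMIs, 1 point a gene, in the 5 classes, for 25 further p53 targets, 14 regulators of p53 and 11 Gadd45 partners and kinases; red points were called higher and blue ones lower, and genes at 0 in control are drawn at their bound. Blue points occur in RPE-like droplets among the Gadd45 partners (3 genes) and in Müller-like droplets among the regulators (1 gene).

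Genes with the most similar pattern were sought over the 10 combinations of class and library by Pearson correlation of log2(CPM + 1), as a description only, since the points share libraries and differ in depth. Gadd45b was most like Ddx3y (0.946), Nfkbia (0.926) and Fos (0.922). Ddx3y lies on the Y chromosome, and the pools differ in sex, whereas Nfkbia (an inhibitor of NF-kB) and Fos (a subunit of AP-1) are early response genes. Gadd45g was most like Eif5 (0.935), Cops5 (0.931) and the early response gene Egr1 (0.911). For Cdkn1a these were Npm1 (0.949), Coq10b (0.949) and Clic4 (0.944), for Trp53 Map2k4 (0.941), Zfp593 (0.941) and Peak1 (0.936), and for Mdm2 Btg1 (0.963), Gpatch4 (0.957) and Ppan (0.955). The closest genes to Gadd45a were Pip4k2b (0.97), Kat5 (0.954) and Sfmbt1 (0.949), and those to Ccng1 were Smim15 (0.909), Dnaja2 (0.885) and Msantd3 (0.855). Trp53inp1 was nearest to Zfp511 (0.983), Wdr48 (0.98) and Foxj2 (0.976), and Sesn1 to Syne1 (0.982), Zbed4 (0.981) and Ahcyl1 (0.979). Among the members themselves the highest correlations were those of Cdkn1a with Gadd45g (0.821) and of Sesn1 with Trp53inp1 (0.802), and Sesn1 with Cdkn1a was the lowest (-0.575).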

How the data were processed

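Retinae were analysed as 1 control and 1 light damage library. The authors mapped the reads with salmon 1.10.1 and alevin-fry 0.8.1 to a mm10 index of spliced and intronic sequence, kept reads on the transcript strand, and deposited raw UMI counts per barcode and gene as spliced, unspliced and ambiguous UMIs, before any filter or normalization.

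Droplets were kept above the inflection of the curve of UMIs over barcode rank (1464 UMIs in control, 1614 in light damage) with under 10% mitochondrial UMIs. The droplets with the highest Scrublet scores, 0.8% per 1000 droplets, were left out as doublets (114 and 276). Each droplet was classed by the share of its UMIs in marker genes (at least 0.5% for RPE, 0.3% for cones and Müller glia, 1% for rods, with 3 markers detected), limits that were set after the data were seen. Barcodes under 50 UMIs stood for free RNA. UMIs were added up within each class of a library. The 95% intervals are exact: Poisson for CPM, binomial for shares, and conditional binomial for ratios. Where the control had 0 UMIs, 3 UMIs in that library were taken as its upper limit and the fold is a lower bound. The intervals were tested on simulated counts drawn independently for each gene, which is the model they assume. That test could not show how they hold where a gene's UMIs lie in few droplets. The summed spliced and ambiguous UMIs, which set the precision, ranged from 120007 in control Müller-like droplets to 10883061 in light damage high-unspliced rods.

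The members and lists were chosen with earlier results of these data known. Named are all 9 members, in each class the 3 further pathway genes with the largest rise and the 3 with the largest fall among those called, by the interval end nearest 0 (genes outside this rule are listed without values, except Rrm2b), and the 3 genes most like each member among those with at least 200 UMIs. The settings varied were the droplet minimum (1000 UMIs), the mitochondrial limit (5%), doublets kept, subtraction of free RNA, leaving out rods of at least 50% free RNA, adding unspliced UMIs, centring on the median gene, totals that leave out mitochondrial and ribosomal protein genes, a rod split at 25%, Leiden clusters, minimums of 50 and 1 UMIs, and no thinning. Chosen after the data were seen were at least 1% of cone markers, leaving out droplets over 50000 UMIs, and leaving out the droplet richest in the gene. Where 1 droplet held a larger share of the control than of the light damage UMIs, the last of these tends to raise the ratio and is no test of it. The analysis ran in Python 3.11.15 with scanpy 1.11.5 (clusters by leidenalg 0.10.2 on igraph 0.11.9, doublet scores with scikit-learn 1.9.0), scipy 1.17.1 for intervals, pandas 2.3.3 and numpy 2.4.6 for tables and matplotlib 3.10.9 for plots.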

Additional observations from a re-analysis of the deposited data

Results flagged for a closer look

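Signals of these genes also appeared in data outside the 5 classes. In free RNA, taken from barcodes under 50 UMIs, Gadd45b stood at 94.4 CPM in the light damage and 5.56 in the control library (241 and 7 UMIs, log2 ratio 4.09, 3.02 to 5.42). In the same barcodes Cdkn1a stood at 11.4 against 1.59 CPM (29 and 2 UMIs, 2.84, 0.86 to 5.95) and Gadd45g at 25.9 against 11.9 CPM (66 and 15 UMIs, 1.12, 0.29 to 2.03). The free RNA level of Gadd45b lies above its level in light damage rods (67.9 and 84.6 CPM) and below that in RPE-like and Müller-like droplets (181 and 1071 CPM). With the expected free RNA subtracted, the counts of members called higher in the 5 classes were within 1.5 times those without subtraction.

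Microglia-like droplets (12 control, 40 light damage), which belong to none of the classes described, held Gadd45b at 382 CPM (141 UMIs) after light damage and 0 UMIs in control, at least 4.17-fold. Bipolar-like droplets (30 control, 18 light damage) held it at 308 against 54.6 CPM (61 and 4 UMIs, log2 ratio 2.50, 1.07 to 4.42).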

How the results depend on the processing

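With 1 library per condition no replicate could be left out. No paired analysis was possible because each condition is 1 pool and 1 library. Of 250 counts of calls under the alternatives 225 were within 1.5 times of those reported. Of 90 shares of thinned droplets, 33 were counted as the same without thinning and 57 as moved. Of 360 log2 ratios of members 353 stayed within the reported interval. In all 21 changed sign, 19 of them ratios that had not been called. The 2 called ratios that changed sign were Gadd45b in cone-like droplets (-1.01 with Leiden clusters, -0.91 with at least 1% cone markers); the cause was not tested.

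Members called higher in cone-like droplets numbered 0 with Leiden clusters, 0 with 1% cone markers, 1 with at least 50 UMIs and 1 without droplets over 50000 UMIs, and 1 was called lower with Leiden clusters (Gadd45b) and 1 with 1% cone markers (Trp53, -1.14). With at least 50 UMIs the calls of Cdkn1a in high-unspliced rods, of Cdkn1a and Gadd45b in cone-like droplets and of Gadd45a in RPE-like and Müller-like droplets were lost, since these genes had fewer. In low-unspliced rods 2 members were higher with at least 1 UMI (Cdkn1a added). In Müller-like droplets 1 member was lower with unspliced UMIs added (Sesn1, -1.20). Members higher numbered 2 to 4 in high-unspliced rods, 4 to 6 in RPE-like and 3 to 5 in Müller-like droplets.

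Of the other pathway genes, 5 were higher in low-unspliced rods at 1000 UMIs and 5 at 5% mitochondrial UMIs. In cone-like droplets 3 were higher with unspliced UMIs added, 1 with at least 50 UMIs and 8 without droplets over 50000 UMIs, and 2 were lower with Leiden clusters and 1 with 1% cone markers. In Müller-like droplets 10 were higher with unspliced UMIs added, 10 after centring and 2 with at least 50 UMIs, and those lower numbered 0 at 5% mitochondrial UMIs, after centring, with Leiden clusters, with at least 50 UMIs and without droplets over 50000 UMIs, 2 with free RNA subtracted and 3 with at least 1 UMI. The depth of the control Müller-like class, 120007 UMIs, limits what can be called there.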
